A study of Rattus norvegicus with 12 samples.

Results

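Rat hepatocytes exposed to diclosan at 30 µM for 24 h were set against hepatocytes given the vehicle, DMSO. The members were taken from the sample titles: 3 arrays labelled diclosan and 3 labelled DMSO, or 6 of the 12 arrays of the series. The other 6 arrays, 3 of triclosan and 3 of 1-chloro-3-(4-chlorophenoxy)benzene (CCPB), both also at 30 µM for 24 h, entered the fit so that all groups shared one estimate of the spread. All groups were primary hepatocytes from male rats of the Sprague Dawley strain, with no engineered allele, which had been cryopreserved and were kept in culture for 24 h before exposure. The labels call the 3 arrays of each group independent experiments and do not say whether the cells came from different rats or lots, so the p-values measure the spread between these experiments. The series title places the work in a read-across study, in which the toxicity of one chemical is inferred from that of close structural relatives.

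Diclosan is a chlorinated diphenyl ether with a hydroxyl group, used as an antimicrobial, and triclosan carries an additional chlorine. CCPB is a dichlorinated diphenyl ether without the hydroxyl group, with a ring chlorine at another position than in diclosan. In hepatocytes, fat-soluble chemicals are sensed by the nuclear receptors CAR and PXR, which raise cytochrome P450 and conjugating enzymes. Bile acids are sensed by the receptor FXR, which raises Nr0b2, the gene of the small heterodimer partner (SHP), a receptor without a DNA-binding domain that silences other nuclear receptors and through them bile acid synthesis. Cholesterol is made from acetyl-CoA through mevalonate and squalene, and the genes of this chain are switched on together by the transcription factor SREBP-2 when sterols in the endoplasmic reticulum run low.

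The 2 genes that passed the test were Nr0b2 and Cited4, and their promoters are shown because both were higher in every diclosan array. Each window holds the 250 bases before the gene's start in RefSeq's GRCr8 build, read 5′ to 3′ on the gene's strand, which is the plus strand for both. The Nr0b2 window lies at chr5:151062910-151063159 and the Cited4 window at chr5:139531915-139532164. Capitals mark the E-box CACGTG and the TATAAA box in Nr0b2 and the CCAAT box in Cited4, each searched on both strands.
Nr0b2: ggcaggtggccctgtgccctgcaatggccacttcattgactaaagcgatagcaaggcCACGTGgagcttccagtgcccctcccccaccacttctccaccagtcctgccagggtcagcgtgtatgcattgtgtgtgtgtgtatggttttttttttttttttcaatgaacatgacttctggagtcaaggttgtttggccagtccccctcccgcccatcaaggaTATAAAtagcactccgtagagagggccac
Cited4: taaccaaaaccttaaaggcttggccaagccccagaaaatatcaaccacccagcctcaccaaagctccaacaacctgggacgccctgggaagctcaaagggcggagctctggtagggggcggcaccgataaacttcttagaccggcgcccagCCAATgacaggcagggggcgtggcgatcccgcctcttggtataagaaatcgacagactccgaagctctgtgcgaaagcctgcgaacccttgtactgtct
Over all 33469 promoters in the table, 5.59% held CACGTG, 12.9% held TATAAA and 34.0% held CCAAT in the same 250 bases. The nuclear receptor motif AGGTCA, present in 14.1% of promoters, had 0 matches in the Nr0b2 window. A match describes the letters of the window only.

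On each of the 6 arrays 52.7% to 55.5% of probes were well above background, and after the filter on dim probes 20359 genes and transcripts were tested, 10685 of them with a gene symbol. Signals are given as log2 of the background-subtracted intensity minus the array's own 75th percentile, so 0 is the signal at that percentile. All 12 hepatocyte markers measured, among them albumin (Alb) and transthyretin (Ttr), were well above background on every diclosan and DMSO array, and their median difference was -0.04. By the slide barcode in the scanner files, diclosan replicate 3 lay on a second slide with the 3 CCPB arrays, and the other diclosan arrays lay on the first slide with the DMSO and triclosan arrays. Diclosan replicate 3 also stood apart from replicates 1 and 2, as described further on, so results are given with and without it. The 95% interval of a difference between diclosan and DMSO reached a median of 0.145 to either side on the log2 scale. The median absolute difference over all genes was 0.0626.

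Few genes passed the test between diclosan and DMSO, and Nr0b2 had the larger difference of those that did. Nr0b2 had signals of -0.12, -0.10 and -0.36 in diclosan cells, against -2.21, -1.76 and -2.01 in DMSO cells. The groups were far apart, and replicate 3 was the lowest of the diclosan arrays. The difference was 1.80 on the log2 scale (95% interval 1.52 to 2.08), a 3.48-fold rise, with an adjusted p of 0.00131 (limma, Benjamini-Hochberg over all genes tested). Without diclosan replicate 3 the difference was 1.88, with an adjusted p of 0.00494.

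Cited4, which encodes a coregulator that binds the acetyltransferases CBP and p300, was the other gene to pass, and it too was higher. Its signals were -1.80, -1.84 and -1.88 in diclosan cells and -2.56, -2.40 and -2.41 in DMSO cells, with no overlap. The rise was 0.62 on the log2 scale (95% interval 0.49 to 0.74), or 1.53-fold, with an adjusted p of 0.00737 by limma, and 0.63 with an adjusted p of 0.0261 without replicate 3. These 2 genes were 0.00982% of the 20359 tested, and 0 genes passed as lower. At an unadjusted p under 0.05, 1070 genes (5.26%) lay higher and 1078 (5.29%) lower, together 10.6% of all. A difference of 2-fold or more in either direction was met by 9 genes and transcripts, or 0.0442%. When diclosan replicate 3 was left out, 3 genes passed (0.0147%), the third being a transcript without a symbol, and 9.83% had an unadjusted p under 0.05. With only the 8 arrays of the first slide in the fit, or only the 6 diclosan and DMSO arrays, 0 genes passed by limma, and 1881 and 1676 had an unadjusted p under 0.05.

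**Figure D1:**
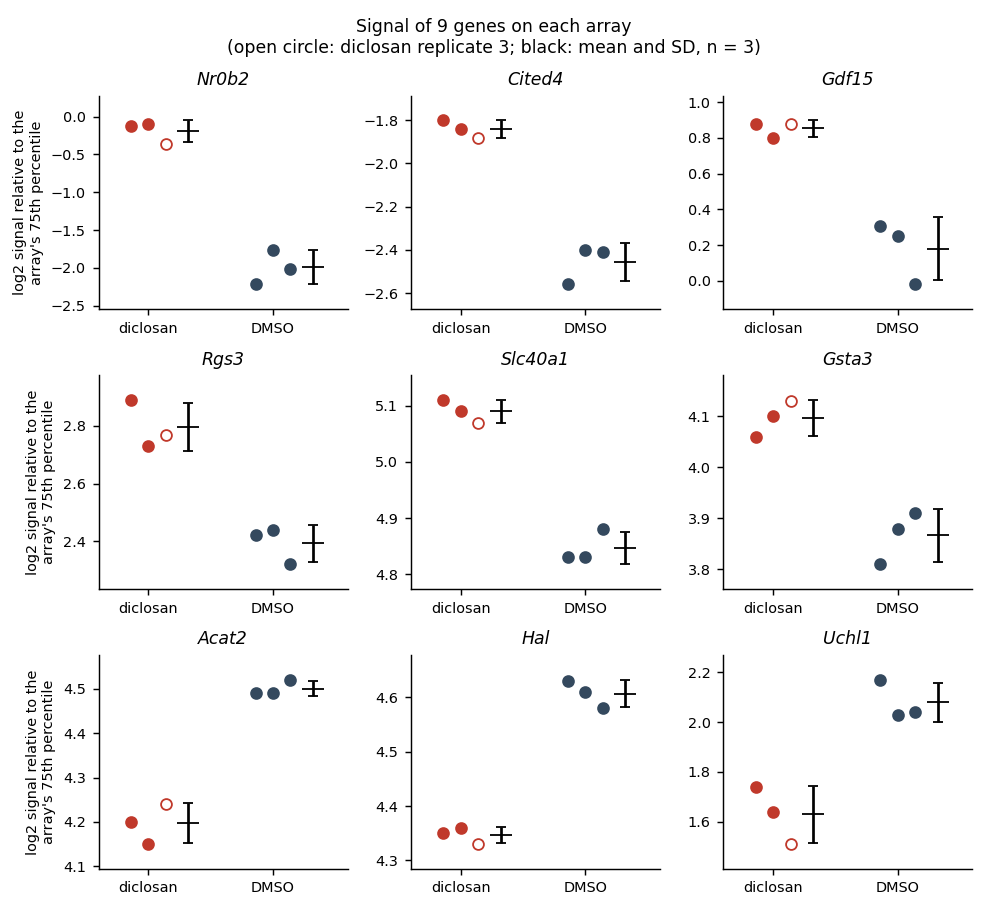
Log2 signal relative to the array's 75th percentile (vertical axis, its range set per panel) of 9 genes on the 3 diclosan arrays, left, and the 3 DMSO arrays, right, with the mean and SD in black and diclosan replicate 3 as an open circle. In each panel the diclosan arrays lie on one side of all DMSO arrays, and the group means differ by 1.80 on the log2 scale for Nr0b2 and by 0.23 for Gsta3.

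The count of genes changed with the prior variance that the test used, and with other choices of processing. The residual spread between arrays of a group shrank with the signal: its median SD was 0.233 on the log2 scale in the dimmest 4072 genes and 0.0442 in the brightest 4072. With a prior variance that follows the signal (limma's trend option, in place of the constant prior), 25 genes and transcripts passed at an adjusted p under 0.05, or 0.123% of those tested, 10 of them higher (0.0491%) and 15 lower. All 3 diclosan arrays lay on one side of all 3 DMSO arrays for each of the 25. Without diclosan replicate 3 all 25 still passed in the trended fit, and 16 more joined them. Of the 25, 9 passed whichever of the 6 arrays was left out: Nr0b2, Cited4, Gdf15, Rgs3, Acat2, Hal, Uchl1 and a pair of transcripts without a symbol. The count was lowest, 9, without DMSO replicate 1, was 14 without DMSO replicate 3 and 16 without diclosan replicate 2, and was highest, 41, without diclosan replicate 3. With only the 6 diclosan and DMSO arrays in the trended fit 1 gene passed, and with the replicate number as a block 48 did. Scaling each array to its median left 3 genes, all higher, and quantile normalization gave 11 higher and 26 lower.

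**Figure D2:**
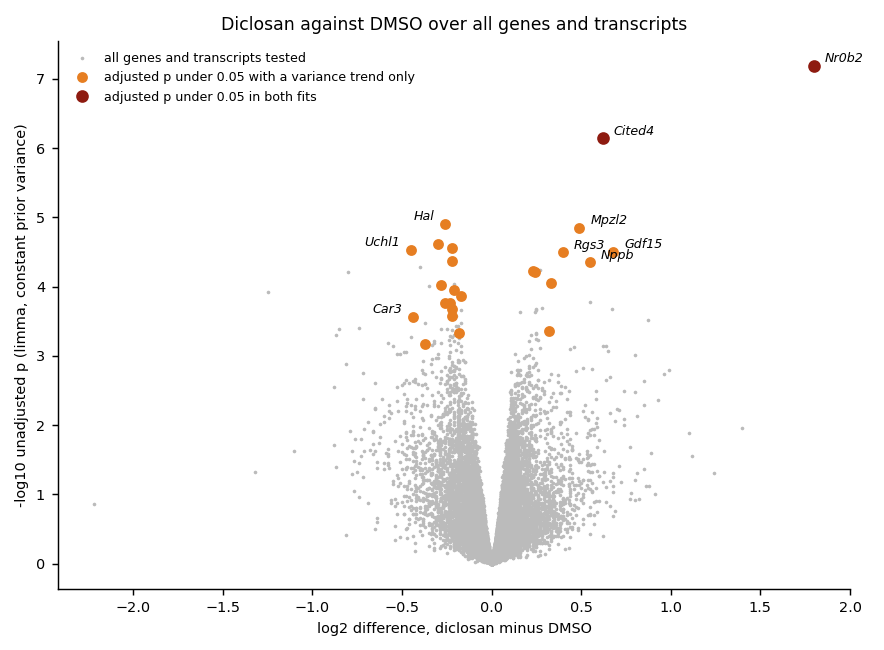
Log2 difference between diclosan and DMSO (horizontal axis) against -log10 of the unadjusted limma p with a constant prior variance (vertical axis) for all 20359 genes and transcripts (grey). The 2 genes that passed in both fits (dark red) are Nr0b2 and Cited4, and the other 23 of the 25 that passed with the variance trend (orange) differ by at most 0.68 in either direction.

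Among the 19 named genes that passed in the trended fit, 10 were higher in diclosan cells. Gdf15, a secreted stress cytokine, had signals of 0.88, 0.80 and 0.88 in diclosan cells against 0.31, 0.25 and -0.02 in DMSO cells, with no overlap. The difference was 0.68 (95% interval 0.47 to 0.89), a ratio of 1.6, with an adjusted p of 0.0651 by limma with the constant prior and 0.00335 with the trend. Rgs3, a regulator of G-protein signalling, had 2.89, 2.73 and 2.77 in diclosan cells and 2.42, 2.44 and 2.32 in DMSO cells, a difference of 0.40 with a trended limma adjusted p of 0.00335. Slc40a1 encodes ferroportin, the iron exporter. It had 5.11, 5.09 and 5.07 in diclosan cells against 4.83, 4.83 and 4.88 in DMSO cells, a narrow spread in both groups and a difference of 0.24 (trended limma adjusted p = 0.00582). Gsta3, a glutathione transferase, had 4.06, 4.10 and 4.13 in diclosan cells against 3.81, 3.88 and 3.91 in DMSO cells, a difference of 0.23 (trended limma adjusted p = 0.00637). Igfbp4, a binding protein of insulin-like growth factors, differed by 0.33, and Nppb, the natriuretic peptide B precursor, by 0.55. The last of the 10 were Mpzl2, an adhesion molecule, at 0.49 and Depp1, a FOXO-responsive gene, at 0.32. These 8 genes other than Nr0b2 and Cited4 had adjusted p-values of 0.0651 to 0.173 with the constant prior.

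The 9 named genes that were lower in the trended fit were mostly enzymes of metabolism. Hal encodes histidine ammonia-lyase, the first enzyme of histidine breakdown. It had 4.35, 4.36 and 4.33 in diclosan cells against 4.63, 4.61 and 4.58 in DMSO cells, so the arrays of each group lay close together and the groups did not meet. The difference was -0.26 (95% interval -0.33 to -0.19), with an adjusted p of 0.0651 by limma with the constant prior and 0.00335 with the trend. Uchl1, a ubiquitin hydrolase, had 1.74, 1.64 and 1.51 in diclosan cells and 2.17, 2.03 and 2.04 in DMSO cells, a difference of -0.45 (trended limma adjusted p = 0.00335). Car3, carbonic anhydrase 3, had 5.42, 5.23 and 5.20 in diclosan cells and 5.80, 5.59 and 5.76 in DMSO cells, a difference of -0.44 (trended limma adjusted p = 0.0153). Acat2, Cyp51, Fdps and Lss, described next, were also among the 9.

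Genes of cholesterol synthesis lay lower in diclosan cells as a group, by small amounts. Of 21 measured members 18 had a difference below 0, and the median was -0.15, against 0.0036 over all genes tested, of which 51.7% lay above 0. For 12 of the 21, all 3 diclosan arrays lay below all 3 DMSO arrays, and 0 had the reverse, where 7.52% of all genes lay below and 8.5% above in this way. With the constant prior 0 members passed the test by limma, and 12 had an unadjusted p under 0.05. With the variance trend 4 of the 21 passed, all lower, where 0.0737% of all genes passed as lower: Acat2, Cyp51, Fdps and Lss. Without replicate 3 the median was -0.13, 17 members lay below 0, and Idi1 and Msmo1 passed too in the trended fit. Over the 6 trended fits that each left out 1 array, Acat2 passed in 6, Fdps in 5, Cyp51 in 3 and Lss in 1. With median scaling 0 genes passed as lower in the trended fit.

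Along the chain, Acat2, which joins acetyl-CoA units at the first step, had 4.20, 4.15 and 4.24 in diclosan cells against 4.49, 4.49 and 4.52 in DMSO cells. The difference was -0.30 (95% interval -0.39 to -0.21), with a trended limma adjusted p of 0.00335, and over the gene's 4 probes it ran between -0.30 and -0.19. Hmgcs1, the next enzyme, had 6.18, 6.13 and 6.16 against 6.33, 6.32 and 6.31, and a difference of -0.16 that did not pass. Fdps, which makes farnesyl diphosphate, had 6.76, 6.67 and 6.72 in diclosan cells and 6.92, 6.93 and 6.92 in DMSO cells, a difference of -0.21 (trended limma adjusted p = 0.00637). Lss, which makes lanosterol, had 3.01, 3.04 and 3.05 in diclosan cells against 3.20, 3.20 and 3.21 in DMSO cells, a difference of -0.17 (trended limma adjusted p = 0.0334). Cyp51, the demethylase that follows, had 4.82, 4.74 and 4.77 against 5.00, 5.00 and 5.09, a difference of -0.26 (trended limma adjusted p = 0.0137). Squalene synthase (Fdft1) and squalene epoxidase (Sqle) had differences of -0.0022 and -0.048, with overlapping groups.

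Among 16 measured genes that control or move cholesterol, 9 lay below 0 and the median was -0.052, or -0.019 without replicate 3. With the constant prior 0 members passed the test by limma. With the variance trend 1 of the 16 passed, as lower, where 0.0737% of all genes did. Insig1, which retains the SREBP escort in the endoplasmic reticulum, differed by -0.19 and Srebf2, the gene of SREBP-2, by -0.11, both without overlap and neither past the test.

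**Figure D3:**
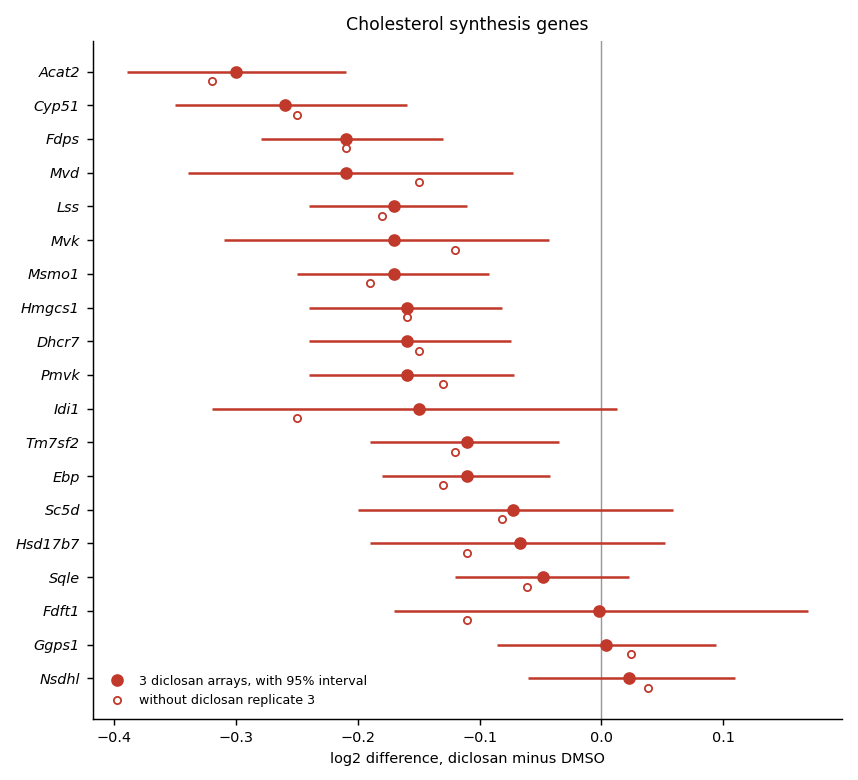
Log2 difference between diclosan and DMSO (horizontal axis) of 19 of the 21 measured cholesterol synthesis genes, with the 95% interval of the fit to all arrays (filled) and the value without diclosan replicate 3 (open). Acat2, at -0.30, is the lowest of those drawn and Nsdhl, at 0.023, the highest.

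Promoters of the chain are shown for Fdps and Lss, members that passed with the trend and hold a CCAAT box, the site of NF-Y, a factor that works beside SREBP at sterol-regulated promoters. The windows are again the 250 bases before the start in GRCr8, both on the minus strand, at chr2:176804817-176805066 for Fdps and chr20:12118231-12118480 for Lss. Capitals mark CCAAT, read on either strand.
Fdps: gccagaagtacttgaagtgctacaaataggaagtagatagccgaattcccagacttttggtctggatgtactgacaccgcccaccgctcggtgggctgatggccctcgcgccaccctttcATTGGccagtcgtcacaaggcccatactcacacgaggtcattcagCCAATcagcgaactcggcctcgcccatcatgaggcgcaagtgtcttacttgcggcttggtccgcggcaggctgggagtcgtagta
Lss: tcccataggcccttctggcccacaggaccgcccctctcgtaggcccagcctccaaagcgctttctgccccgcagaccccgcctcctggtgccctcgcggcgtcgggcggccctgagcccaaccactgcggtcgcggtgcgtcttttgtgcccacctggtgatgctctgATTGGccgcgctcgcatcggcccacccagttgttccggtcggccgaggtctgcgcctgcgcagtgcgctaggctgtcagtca
Fdps held 2 matches and Lss 1. Of the 21 measured members, 16 had 1 entry in the promoter table, and 13 of these, or 81.2%, held CCAAT, against 34.0% of all promoters in the table. Acat2 and Cyp51 had 0 matches. The sterol element TCACNCCAC had 0 matches in the 16 windows and occurred in 0.974% of all promoters.

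Fatty acid synthesis genes, many of which are SREBP-1 targets, also lay lower, with 16 of 20 measured members below 0 and a median of -0.08. All diclosan arrays lay below all DMSO arrays for 9 of them, where 7.52% of all genes did so. By limma 0 passed the test, with 7 lower and 1 higher at an unadjusted p under 0.05, where 5.29% and 5.26% of all genes were. Acss2, which makes acetyl-CoA from acetate, had 1.64, 1.65 and 1.57 in diclosan cells against 1.80, 1.84 and 1.83 in DMSO cells, a difference of -0.20. The desaturase Fads2 had 0.27, 0.26 and 0.25 in diclosan cells and 0.52, 0.45 and 0.43 in DMSO cells, a difference of -0.21. Its neighbour in the pathway, Fads1, differed by -0.23 with a constant-prior limma adjusted p of 0.182, and by -0.27 without replicate 3, where it passed with the trend (adjusted p = 0.0109). Fasn, the fatty acid synthase, differed by -0.14. Without replicate 3 the list's median was -0.048.

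Fatty acid oxidation genes and PPARα targets had a median of -0.052, with 21 of 30 members below 0 and 9 with all diclosan arrays below all DMSO arrays, as 7.52% of all genes had. By limma 0 members passed with the constant prior. With the variance trend 1 of the 30 passed, as lower, where 0.0737% of all genes did. Angptl4, a secreted lipase inhibitor, had 5.46, 5.53 and 5.33 in diclosan cells and 5.72, 5.60 and 5.66 in DMSO cells, a difference of -0.21 that did not pass. Cyp4a1, a classical PPARα target in rat liver, differed by 0.0035, and its diclosan arrays all lay within the range of the DMSO arrays.

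Genes of foreign-compound metabolism lay slightly higher. Of 21 CAR and PXR targets 16 were above 0, with a median of 0.077 (0.078 without replicate 3), and 5 had all diclosan arrays above all DMSO arrays, as 8.5% of all genes had. The median was 0.03 without DMSO replicate 1 and 0.12 without DMSO replicate 2. None passed the test with either prior, and 6 were higher at an unadjusted p under 0.05, where 5.26% of all genes were. The CAR target Cyp2b2 had -0.38, -0.89 and -0.78 in diclosan cells against -0.97, -1.04 and -1.28 in DMSO cells, a difference of 0.41 with a wide spread and an adjusted p of 0.422 by limma. Cyp2c6v1 had 2.50, 2.38 and 2.50 in diclosan cells and 2.22, 2.29 and 2.20 in DMSO cells, a difference of 0.23. Cyp3a18 differed by 0.21, while the PXR target Cyp3a23-3a1 differed by 0.077, with 5.85, 5.81 and 5.74 in diclosan cells against 5.58, 5.83 and 5.75 in DMSO cells.

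Conjugating enzymes had 27 of 36 members above 0 and a median of 0.047, with 10 members in which all diclosan arrays exceeded all DMSO arrays and 0 the reverse, where 8.5% of all genes lay above and 7.52% below in this way. Gsta3 passed with the trend. The related transferase Gsta1 had 7.17, 7.30 and 7.43 in diclosan cells against 7.05, 7.08 and 7.03 in DMSO cells. Its difference was 0.24, which did not pass with the trend (limma adjusted p = 0.0667). Without replicate 3 the difference was 0.178, which passed with the trend (limma adjusted p = 0.0406). Another Gsta1 probe, somewhat dimmer, differed by 0.091 over all arrays. The glutathione transferases of this class are close in sequence, so their probes may share signal. The 5 AhR targets had a median of 0.10, or 0.039 without replicate 3. Cyp1a1 had 1.89, 2.04 and 2.25 in diclosan cells and 1.80, 1.72 and 1.90 in DMSO cells, with replicate 3 the highest, and its difference of 0.25 became 0.16 without that array. Of 25 NRF2 targets 16 lay above 0, with a median of 0.021 (0.0049 without diclosan replicate 2 and 0.013 without DMSO replicate 2); the quinone reductase Nqo1 differed by 0.16 and the heme oxygenase Hmox1 by 0.15, both without overlap between groups and neither past the test.

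Of the integrated stress response, Gdf15 alone passed with the trend. The 28 measured members had a median of 0.01, and Ddit3, Trib3 and Fgf21, which encode the factor CHOP, a pseudokinase and a hepatokine, differed by 0.003, 0.0064 and 0.022. Ddit3 had 4.81, 4.79 and 4.84 in diclosan cells and 4.89, 4.77 and 4.77 in DMSO cells. Among 22 chaperones and folding genes of the endoplasmic reticulum, 20 lay above 0, with a median of 0.057. This median was 0.018 without diclosan replicate 1. Without replicate 3 it was 0.088, and the members with all diclosan arrays above all DMSO arrays numbered 13 instead of 5, where the share over all genes was 15.7% instead of 8.5%. Dnajb9, a co-chaperone, had 2.06, 2.05 and 2.09 against 1.92, 1.87 and 1.92 in DMSO cells, a difference of 0.16 (limma adjusted p = 0.126). Heat shock proteins had a median of 0.027 over 18 members (0.049 without replicate 3), and p53 targets one of 0.01 over 18, with the cell cycle inhibitor Cdkn1a at 0.025.

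Cell cycle genes lay lower by small amounts. Of 25 mitosis genes 23 were below 0, with a median of -0.10, and of 24 DNA replication genes 16 were below 0, with a median of -0.097. All diclosan arrays lay below all DMSO arrays for 6 and 7 of them, and above for 0 and 0, where 7.52% of all genes lay below and 8.5% above in this way. The cyclin Ccne1 had 0.81, 0.77 and 0.73 in diclosan cells and 0.97, 0.98 and 0.99 in DMSO cells, a difference of -0.21 (limma adjusted p = 0.173). Without diclosan replicate 2 the medians shrank to -0.048 for mitosis and -0.051 for replication.

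Of the bile acid genes, Nr0b2 alone passed the test. FXR itself (Nr1h4) differed by 0.036, the receptor Hnf4a by 0.032 and Nr5a2, a partner of SHP, by 0.00061. The 13 genes of bile acid synthesis had a median of -0.0066 and the 12 transporters one of 0.014, with the bile salt export pump Abcb11, an FXR target, at 4.98, 4.94 and 5.01 in diclosan cells against 4.92, 4.96 and 4.95 in DMSO cells. Abcg5, a sterol exporter, had -3.90, -3.88 and -3.29 in diclosan cells against -4.25, -4.31 and -4.19 in DMSO cells. Its groups did not overlap and replicate 3 was the highest, with a difference of 0.56 (limma adjusted p = 0.303) that was 0.36 without replicate 3 and 0.15 with the normexp background. Cyp7a1, the rate-limiting enzyme of bile acid synthesis, was removed by the filter as dim. Medians near 0 were also found for 30 respiratory chain and mitochondrial genes (0.016), 27 genes of glycolysis, gluconeogenesis and HIF1 (-0.0097), 30 hepatocyte function genes (0.01), 17 acute phase genes (0.041), 22 immediate early genes and Krüppel-like factors (0.012) and 5 Cited coregulators and partners (-0.012). Medians this close to 0 moved by over 1.5 times, and several changed sign, when single arrays were left out. Among these, Egr1, an immediate early factor, had -1.16, -1.18 and -1.55 in diclosan cells and -2.02, -1.59 and -1.61 in DMSO cells. Its difference of 0.44 became 0.57 without replicate 3, where it passed with the trend (limma adjusted p = 0.0239). The glycolytic enzyme Pklr had 4.02, 4.04 and 4.03 against 4.23, 4.32 and 4.28 in DMSO cells, a difference of -0.25 with a limma adjusted p of 0.241. The 15 thyroid and steroid hormone genes had a median of -0.074, or -0.043 without replicate 3.

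**Figure D4:**
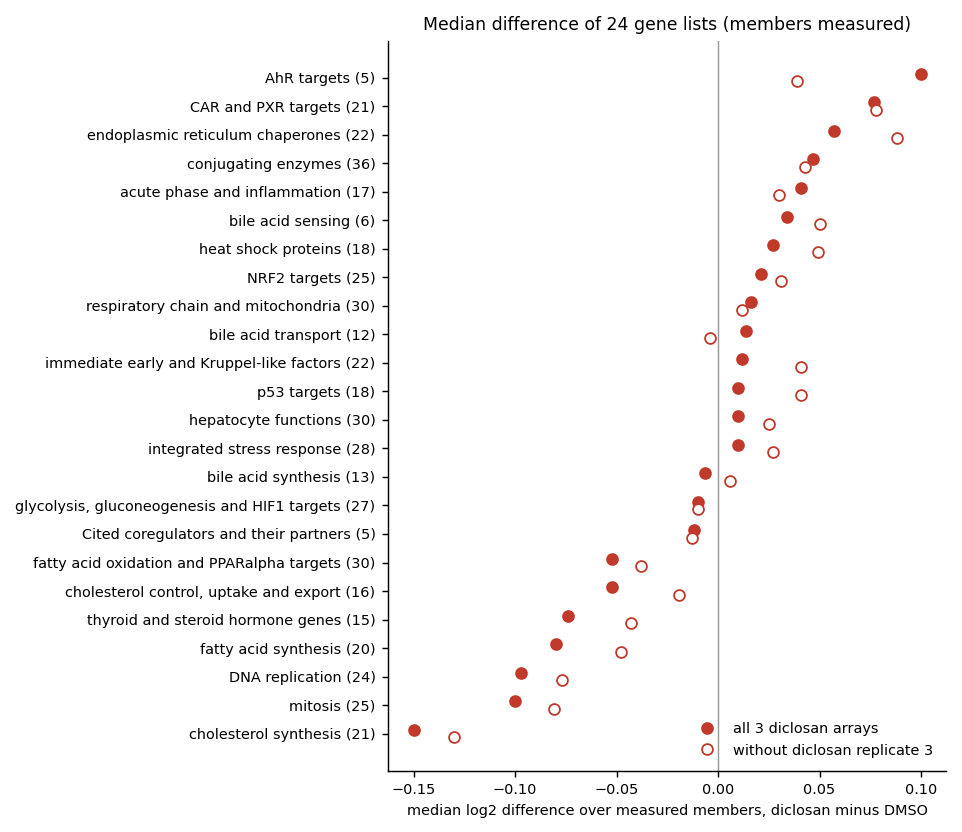
Median log2 difference between diclosan and DMSO (horizontal axis) over the measured members of 24 gene lists, whose number is in brackets, with all 3 diclosan arrays (filled) and without replicate 3 (open). Cholesterol synthesis, at -0.15, is lowest in both, and the AhR list moves most, at 0.10 with replicate 3 and 0.039 without it.

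Wide differences among named genes that met an unadjusted p under 0.01, with groups that did not overlap, were mostly in dim probes, whose size depends on the background correction. Rasd1, a Ras-related protein, had -3.91, -4.27 and -4.16 in diclosan cells and -4.62, -5.31 and -5.00 in DMSO cells. It was well above background on 2 of the 3 DMSO arrays, and Sert1 and Zscan25 on 1 each. Of the diclosan and DMSO groups, these 3 met the filter only in diclosan, where they were high. Their differences of 0.87, 0.74 and 0.69 were 0.15, 0.11 and 0.091 with the normexp background. C1qb, above background on all 6 arrays, had a difference of 0.59 (0.40 with normexp) and Ace, the angiotensin-converting enzyme, one of 0.58 (0.13 with normexp). Of the genes below 0, Adam4 and Irs3 were well above background on 1 diclosan array and Afap1 on 2. Of the diclosan and DMSO groups, they met the filter only in DMSO. Their differences of -0.85, -0.57 and -0.55 were -0.21, -0.17 and -0.14 with normexp. Col2a1 and Krt7 were not well above background on any diclosan array. With the main background correction they were at least 1.47-fold and at least 1.61-fold lower in diclosan cells. The measured means were -5.31 against -4.51 and -5.02 against -4.33 in DMSO cells (limma adjusted p = 0.0743 and 0.336). For Krt7 this bound equals the measured difference of -0.69. With normexp the differences were -0.18 for Col2a1 and -0.20 for Krt7, so the bounds hold for the main correction only. Cavin1, Mical1 and H2ac25, above background on all 6 arrays, had differences of -0.72, -0.65 and -0.53, or -0.33, -0.30 and -0.24 with normexp. None of these genes passed with either prior.

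Markers of other liver cells were measured beside these results. Of the 5 macrophage markers measured, all had a difference above 0, with a median of 0.51, or 0.67 without diclosan replicate 3 and 0.31 without DMSO replicate 2. The complement gene C1qb had -1.15, -1.44 and -1.56 in diclosan cells against -1.66, -2.29 and -1.97 in DMSO cells, and the Kupffer cell lectin Clec4f had -2.82, -3.18 and -3.73 against -3.14, -4.60 and -3.96. None passed the test (limma adjusted p of 0.316 to 0.614). The 8 stellate cell and fibroblast markers had a median of -0.13 (-0.21 without diclosan replicate 1 and -0.078 without replicate 3), the 4 endothelial markers 0.028 and the 5 cholangiocyte markers 0.03. The lymphocyte list had 1 measured marker, Nkg7, at -0.49. The part of these cells in any difference above was not tested, and in a bulk culture fewer cells of a type and less RNA per cell cannot be told apart.

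Diclosan replicate 3 differed from its partners more than any other array of the 6. The median absolute gap between replicate 3 and the mean of replicates 1 and 2 was 0.106 on the log2 scale, against 0.0777 and 0.0747 for replicates 1 and 2 and 0.0545 to 0.066 for the DMSO arrays, each set against the mean of its own partners. The gap was 2-fold or more for 265 genes, where it was so for 56 and 73 in replicates 1 and 2. Its SD over genes was 0.274, and that of the difference between replicates 1 and 2 and DMSO was 0.148. These SDs are unlike measures. The first sets 1 array against the mean of 2, and the second averages arrays on both sides, which lowers its noise. The genes highest in replicate 3 were Cldn34d, with -2.70 in replicate 3 against -4.60 and -4.90 in replicates 1 and 2, then Nxnl1, Nr1h5, Slc31a1 and Rpl39l5, with gaps of 2.05 to 1.70. Slc31a1, the copper importer, had -0.49 in replicate 3 against -2.36 and -2.14 in the other diclosan arrays and -2.07 to -2.01 in DMSO cells. The lowest were the mitotic kinase Aurkb at -0.88, Snrk at -0.85, Anxa13 at -0.82, and Csrp3 and Tmem88 at -0.78 each.

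Over the 20359 genes, the gap of replicate 3 went with the difference between CCPB and DMSO, at a Pearson r of 0.478 and a Spearman rho of 0.435, given as a description because genes are not independent replicates. The CCPB arrays and replicate 3 share the second slide. With CCPB set against triclosan in place of DMSO, r was 0.515. Slc31a1 differed by 1.34 and Rpl39l5 by 1.15 between CCPB and DMSO, and Nr0b2, with a gap of -0.25 in replicate 3, by 2.25. Slide, exposure and hybridization of replicate 3 cannot be told apart from these files, and its label was kept.

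**Figure D5:**
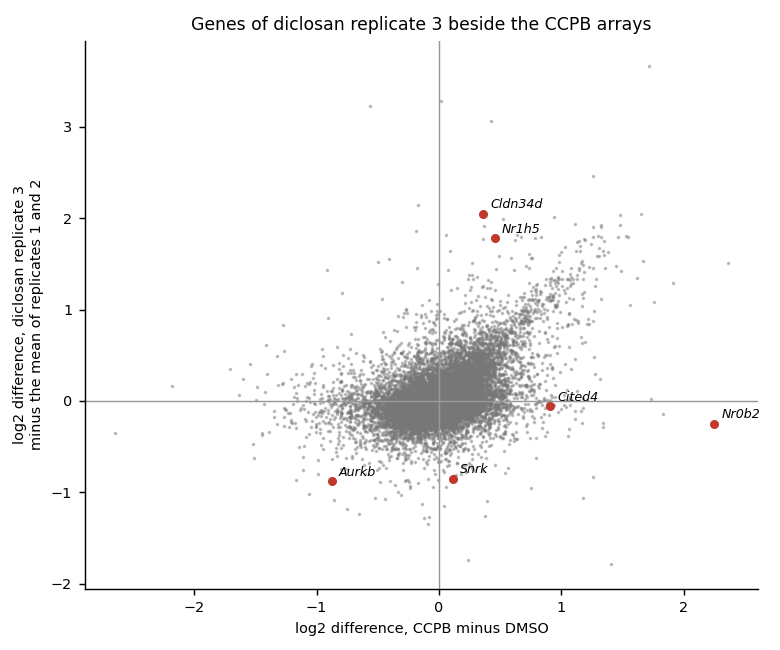
Log2 difference between diclosan replicate 3 and the mean of replicates 1 and 2 (vertical axis) against the log2 difference between CCPB and DMSO (horizontal axis) for 20359 genes and transcripts, with 6 named genes in red. The cloud tilts upward to the right (Pearson r of 0.478), while Nr0b2 and Cited4 lie to the right with gaps of -0.25 and -0.056 on the vertical axis.

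Diclosan and triclosan, which differ by a chlorine, were compared directly at the same dose and time, as were diclosan and CCPB, which differ by the hydroxyl group and by the position of a ring chlorine, giving 2 pairs of compounds with p-values adjusted over all genes in each. Between diclosan and triclosan 0 genes passed by limma (1385, or 6.8%, had an unadjusted p under 0.05), and 1 (0.00491%) passed with the slide as a block. Nr0b2 was lower in diclosan than in triclosan cells by an estimate of -0.30 (95% interval -0.58 to -0.014, adjusted p = 0.712), and Cited4 differed by 0.039 (-0.086 to 0.16, adjusted p = 0.925). For Gdf15 the difference was -0.16 (-0.37 to 0.055), for Gsta3 -0.019 (-0.096 to 0.059) and for Fdps -0.097 (-0.17 to -0.023), none of which passed. A miss of the threshold does not show that the compounds act alike.

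Between diclosan and CCPB 2917 genes passed, 14.3% of those tested, and 997 (4.9%) with the slide as a block, a fit in which the comparison rests on replicate 3. The cholesterol genes Lss and Fdps were lower in diclosan than in CCPB cells, by differences of -0.41 and -0.30 with limma adjusted p-values of 7.55e-05 and 0.000463, and both passed with the slide block as well (0.00281 and 0.0105). Acat2 was likewise lower, at -0.40 (adjusted p = 0.000302, and 0.00913 with the block). Cyp51 did not pass, at -0.072 (95% interval -0.17 to 0.025). Nr0b2 was lower in diclosan than in CCPB cells by an estimate of -0.45 (adjusted p = 0.0412, and 0.0805 with the block), and Cited4 by one of -0.29 (0.00834, and 0.0532 with the block). Igfbp4 was lower at -0.58 and Gsta3 at -0.31, and both passed with the block.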

How the data were processed

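The 12 arrays measured total RNA labelled with Cy3. Spot intensity was extracted with Agilent Feature Extraction 10.7.1.1, per the file headers, and is background-subtracted and detrended within the array but not scaled between arrays. Flags were read as deposited. A second deposited table gives a linear intensity per probe that the authors scaled to a 75th percentile of about 1 on each array. Its correlation with the scanner values was at least 0.999939, and it served as an alternative. No column of another sample was present (0).

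Each array held 62976 spots for 45598 probes, 21229 of them named through RefSeq accessions. Non-uniform spots (1 to 8 per array) were left out, 0 were saturated, and spots of a probe were averaged. Values are log2 minus the 75th percentile of each array. A probe was kept when well above background on all 3 arrays of any group, triclosan and CCPB included (24254 probes). A gene took its brightest probe. Detrending and the floor for dim spots affect differences there, and their size depends on the background correction. The difference of Rasd1 was 0.87 in the main fit and 0.15 with the normexp background, which adds an offset of 50. The 12 arrays were fitted by group, without a block, with limma 3.58.1 in R 4.3.3, adjusting p over 20359 genes by Benjamini-Hochberg, with 0.05 as the threshold. The number of arrays limits the precision. The fit was tested on simulated data.

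The fit without diclosan replicate 3 gave the same values as a fixed slide block, since that array is the only one of diclosan, DMSO or triclosan on the second slide. Named genes were those past the threshold, the 8 highest and 8 lowest at an unadjusted p under 0.01 without overlap, the 3 smallest p-values of each list, a fixed set of 20 genes, and the 5 highest and 5 lowest in replicate 3. Other genes, named from the trended fit or given as members, were added after their values were seen. The members, the 24 pathway lists and the 6 marker lists were chosen with earlier results of these data known. Of list members, 30 had no named probe and 54 were dim. Alternatives covered scaling, background, filters, probes, samples, blocks and prior variance. The normexp background used median signals, chosen after seeing the data, as was each pairing of the trend with another choice. Promoters came from RefSeq (GRCr8), whose build differs from that of the array's headers, so no other coordinates are given. Some genes that the rule names are not reported here.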

Additional observations from a re-analysis of the deposited data

How the results depend on the processing

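Nr0b2 and Cited4 kept a positive difference in every alternative run, lowest for Cited4 with the normexp background, at 0.39 against 0.62. Against 2 genes called with the constant prior, 0 were called with the slide 1 arrays only (smallest adjusted p 0.0682), with the 6 diclosan and DMSO arrays only (0.0624, fewer arrays in the spread) and with the replicate block together with the slide (0.0856), by limma, where 1881, 1676 and 2532 had an unadjusted p under 0.05. Median scaling and no filter on dim probes called 1 each, normexp background 8 (5 higher, 3 lower), the filter on all 12 arrays 10, and the prior variance trend 25; the cause was not tested. Leaving out 1 array at a time called 1 to 3 genes, 1 without diclosan replicate 1 or 2, where Cited4 had adjusted p-values of 0.0599 and 0.068. With the trend, median scaling called 3, the 6 arrays alone 1, and leaving out 1 array at a time 9 to 41. Diclosan and DMSO arrays of the same number did not deviate together (correlations -0.0564, 0.0341 and -0.0891). With 3 arrays per group and diclosan replicate 3 on another slide, this cannot settle whether the numbers pair the samples. The replicate block called 6, and 48 with the trend. Replicate 3's median gap was 0.199 with median scaling. With the slide block, 1 gene was called against triclosan and 997 against CCPB. Of the alternative values of named genes, 2506 kept their side of the threshold, 11 passed it, and the 10 that lost it were 7 of Cited4 and 3 of Nr0b2. Of list medians 563 moved by less than the spread between replicates and 67 by more; values whose interval holds 0 have no direction. Signal over background limits the dimmest 4072 genes, where the median SD was 0.233.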
